A study of Homo sapiens with 12 samples.

Results

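The genes described here were 37 genes of MYC and ribosome biogenesis, taken from the deposited expression table by gene symbol, out of 17303 genes in all. They comprised MYC and the coactivator PPRC1, 5 genes of RNA polymerase I transcription, 4 of box C/D small nucleolar ribonucleoproteins (snoRNPs), 5 of box H/ACA snoRNPs with their chaperone, 5 of small subunit processing, 11 of large subunit processing and 5 coding for abundant nucleolar proteins. All 37 passed the filter on low counts, as did 12868 genes in all. Bulk RNA-seq had been run on SNU638 cells, a line established from a human gastric cancer, to find genes whose expression depends on SKA2, a component of the spindle and kinetochore associated complex. Lines carrying the hairpin sh-SKA2-1, sh-SKA2-2 or sh-SKA2-3 (genotype SKA2 knockdown) were compared with a line carrying sh-control (genotype wt), with 3 libraries per line. All 4 lines had been infected with lentivirus and selected as puromycin-resistant clones, so each hairpin was represented by 1 stable line. No label states that libraries of 1 line were grown apart, so p-values here measure the spread between libraries alone, and that spread may be technical.

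Ribosomes are built mostly in the nucleolus. RNA polymerase I transcribes the long precursor of the ribosomal RNAs, snoRNPs guide its chemical modification, and a series of processing factors cuts and folds it into the small and the large subunit. MYC is a transcription factor that binds E-box sequences together with its partner MAX, and genes of ribosome biogenesis are among its best known targets. Growing tumour cells, gastric cancer cells included, keep this machinery highly expressed.

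SKA2, the targeted gene, was lower in every hairpin library than in any sh-control library. It had 26.0, 22.3 and 23.7 CPM (read counts scaled to library size, with TMM factors) in the sh-SKA2-1 libraries, 23.3, 25.3 and 27.2 CPM in sh-SKA2-2 and 24.9, 26.9 and 28.0 CPM in sh-SKA2-3, against 126, 119 and 117 CPM in sh-control. Each library held between 14693343 and 16739155 counts. Library 1 of sh-SKA2-3 and library 1 of sh-control stood apart from the other libraries of their lines, with a median absolute log2 difference per gene of 0.230 to 0.332, against 0.0722 to 0.134 between all other libraries of 1 line. The libraries also differed in how the counts depended on transcript length and GC content, a pattern described with its values further on. The 6 markers of gastric or intestinal epithelium were all detected, with a summed level of 1017 to 1048 CPM in sh-SKA2-2 and 1998 to 2662 CPM in the other hairpin lines, against 2502 to 3381 CPM in sh-control. Summed markers of fibroblasts (4 of 5 in the table), endothelium and leukocytes did not exceed 8.60, 0.451 and 0.896 CPM in any library. All these marker sums were scaled to library size alone, without TMM factors.

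Per length, the members spanned a wide range of levels. NPM1, a histone chaperone of the nucleolus, was the most abundant with 2488 ± 43.7 TPM (a level scaled for transcript length and library size) in sh-SKA2-1, 2169 ± 39.1 in sh-SKA2-2 and 2589.7 ± 171 in sh-SKA2-3, against 2664 ± 181 in sh-control (mean ± SD, n = 3). In sh-control it was followed by the methyltransferase FBL with 889 ± 84.9 TPM, NOP10 with 721 ± 75.2, NCL with 681 ± 47.8 and NHP2 with 516 ± 56.2 TPM, of which NOP10 and NCL did not differ beyond their spread. MYC averaged 126 ± 10.6 TPM in sh-control. POLR1A, WDR12 and UTP20 were lowest there, with 19.3 ± 5.19, 18.7 ± 3.65 and 13.4 ± 4.65 TPM, and their spreads overlapped.

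MYC binds the E-box CACGTG, so RefSeq promoter windows (GRCh38.p14, from 250 bases before to 50 bases after a gene's start, 300 bases) were searched for these letters, which read the same on both strands. Windows of 30 members were used, 41 in all. CACGTG stood in 13 of the 41 windows (31.7%), against 9.36% of 15381 windows of tested genes and 7.26% of all 35116 windows. The median GC content was 64.0% in the members' windows and 64.7% in those of tested genes. The 13 windows belonged to 13 genes, and 12 of their 15 matches lay within 50 bases of the start. The following windows are shown with CACGTG in capitals. FBL, RRP9 and LYAR were those with the E-box that fell furthest in sh-SKA2-2. UTP20 carried the E-box and was not called there, and NCL fell there and had no match. They lie at chr19:39846330-39846629, minus strand (FBL), chr3:51941855-51942154, minus strand (RRP9), chr4:4289972-4290271, minus strand (LYAR), chr12:101279855-101280154, plus strand (UTP20) and chr2:231464435-231464734, minus strand (NCL).
FBL: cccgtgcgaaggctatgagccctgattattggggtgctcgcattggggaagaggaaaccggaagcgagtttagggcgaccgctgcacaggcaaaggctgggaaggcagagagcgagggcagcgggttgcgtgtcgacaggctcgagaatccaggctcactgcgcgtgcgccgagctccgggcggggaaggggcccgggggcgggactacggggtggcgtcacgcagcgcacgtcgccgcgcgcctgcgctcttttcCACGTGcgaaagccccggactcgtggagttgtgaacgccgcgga
RRP9: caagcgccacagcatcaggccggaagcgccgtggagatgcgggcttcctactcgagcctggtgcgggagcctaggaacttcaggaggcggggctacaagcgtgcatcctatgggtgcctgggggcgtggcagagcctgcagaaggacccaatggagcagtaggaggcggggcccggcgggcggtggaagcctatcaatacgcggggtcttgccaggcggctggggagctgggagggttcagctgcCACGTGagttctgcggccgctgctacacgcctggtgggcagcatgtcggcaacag
LYAR: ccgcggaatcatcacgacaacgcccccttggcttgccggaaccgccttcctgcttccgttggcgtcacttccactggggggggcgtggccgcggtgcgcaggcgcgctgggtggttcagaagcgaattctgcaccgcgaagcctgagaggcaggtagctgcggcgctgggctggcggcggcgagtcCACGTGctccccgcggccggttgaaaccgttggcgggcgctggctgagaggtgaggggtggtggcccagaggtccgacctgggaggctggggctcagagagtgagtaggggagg
UTP20: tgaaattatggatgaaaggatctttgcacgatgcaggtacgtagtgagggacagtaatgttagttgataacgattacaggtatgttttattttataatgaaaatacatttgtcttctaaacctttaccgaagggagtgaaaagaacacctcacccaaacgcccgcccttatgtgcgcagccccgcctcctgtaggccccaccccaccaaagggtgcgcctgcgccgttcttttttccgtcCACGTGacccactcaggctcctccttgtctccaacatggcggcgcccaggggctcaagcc
NCL: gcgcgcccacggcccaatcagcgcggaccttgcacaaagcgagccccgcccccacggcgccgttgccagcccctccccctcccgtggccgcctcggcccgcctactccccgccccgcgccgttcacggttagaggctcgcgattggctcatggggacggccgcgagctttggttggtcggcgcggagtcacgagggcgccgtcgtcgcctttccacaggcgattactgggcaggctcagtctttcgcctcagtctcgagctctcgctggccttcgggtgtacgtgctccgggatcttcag

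No window of MYC, BOP1, RRS1, NOP58, NOLC1, RRP12 or DDX18 was used. In FBL the E-box began 6 bases after the start, in RRP9 5 bases before it, in UTP20 10 bases before it and in LYAR 64 bases before it. A second LYAR window with another start held no match. IMP4 and NOP10 each carried 2 matches in 1 window, and the other members with a match were DDX21, GAR1, GNL3, MRTO4, NOP2, PES1 and WDR43. Of the 13 members with a match 9 were lower in sh-SKA2-2 than in sh-control, and of the 17 without one 13 were. A match here is a description of these letters, not a site shown to be bound.

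Against sh-control, the members were lower most often in sh-SKA2-2. In that line 2 members rose and 27 fell at an adjusted p under 0.05 in edgeR's quasi-likelihood test, out of 37, while 36.6% of all tested genes rose and 37.8% fell. The members' median log2 fold change was -0.57 in sh-SKA2-2, against -0.017 over all tested genes. In sh-SKA2-1 10 members rose and 19 fell, with 31.5% of all tested genes called in each direction, and the median was -0.15 against 0.0059 over all genes. In sh-SKA2-3 6 members rose and 10 fell, where 23.6% of all tested genes rose and 24.0% fell, and the median was -0.0050 against 0.0086. The share of members that rose in sh-SKA2-1 (27.0%), and both shares in sh-SKA2-3 (16.2% higher and 27.0% lower), were near or below those of all tested genes. The 3 comparisons share the sh-control libraries. In bulk samples, fewer cells of a type and less RNA per cell cannot be told apart.

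Some counts depended on single libraries. In sh-SKA2-1 the number of members that rose was 5 without library 2 of sh-control and 6 without library 3. In sh-SKA2-2 the number that rose was 1 without either of these libraries, while 26 or 27 members fell whichever library was left out. In sh-SKA2-3, 12 members rose and 15 fell without library 1 of sh-control, 4 rose without its library 2, and 6 fell without its library 3. Libraries of sh-SKA2-3 and sh-control with the same number deviated together, but so did library 2 of each with library 3 of the other. Deviations were taken from each line's own mean, so a deviation shared by library 1 alone can give this whole pattern. With the replicate number as a block in a fit of these 2 groups, chosen after seeing the data, 14 members rose and 17 fell. Without the libraries that stood apart, likewise chosen after seeing the data, 13 members rose and 21 fell in sh-SKA2-1, 4 rose and 28 fell in sh-SKA2-2, and 13 rose and 15 fell in sh-SKA2-3. The shares of all tested genes called in these fits were not computed. Whether the larger counts are particular to the members thus cannot be told.

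Separation of the libraries gave a like count. All 3 libraries of sh-SKA2-1 lay above all 3 of sh-control for 12 members and below them for 19 (35.0% and 34.2% of all tested genes). For sh-SKA2-2 these counts were 2 and 28 (38.2% and 38.8%), and for sh-SKA2-3 they were 5 and 8 (22.4% and 23.7%). FBL, NOP56, RRP9, DKC1, RRP12, IMP4, BOP1, WDR74 and NPM1, 9 members, were called lower with each of the 3 hairpins, as were 15.0% of all tested genes. FBL and BOP1 turned sign in sh-SKA2-1 and BOP1 in sh-SKA2-2 with length and GC offsets, and on the TPM scale DKC1 turned in sh-SKA2-1 and IMP4 in sh-SKA2-2. POLR1A and DDX18, 2 members, were called higher with each, as were 13.9% of all tested genes, although with the offsets POLR1A turned sign in sh-SKA2-1 and sh-SKA2-2 and DDX18 in sh-SKA2-2. PPRC1 and RRN3 were not called with any hairpin in the test on all libraries. UBTF and TSR1 were called higher in sh-SKA2-1 and sh-SKA2-3 and lower in sh-SKA2-2. On the TPM scale further calls missed the threshold in limma with their sign kept. These were BOP1, GAR1 and NPM1 in sh-SKA2-1, at -0.11 (adjusted p = 0.269), -0.10 (adjusted p = 0.284) and -0.10 (adjusted p = 0.173). In sh-SKA2-2 they were MYC, UBTF, PES1 and NOP2, with PES1 at -0.12 (adjusted p = 0.076) and NOP2 at -0.025 (adjusted p = 0.688). In sh-SKA2-3 they were MYC, POLR1A, DKC1 and NPM1, the last 3 at 0.47 (adjusted p = 0.0677), -0.087 (adjusted p = 0.456) and -0.041 (adjusted p = 0.598).

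**Figure D1:**
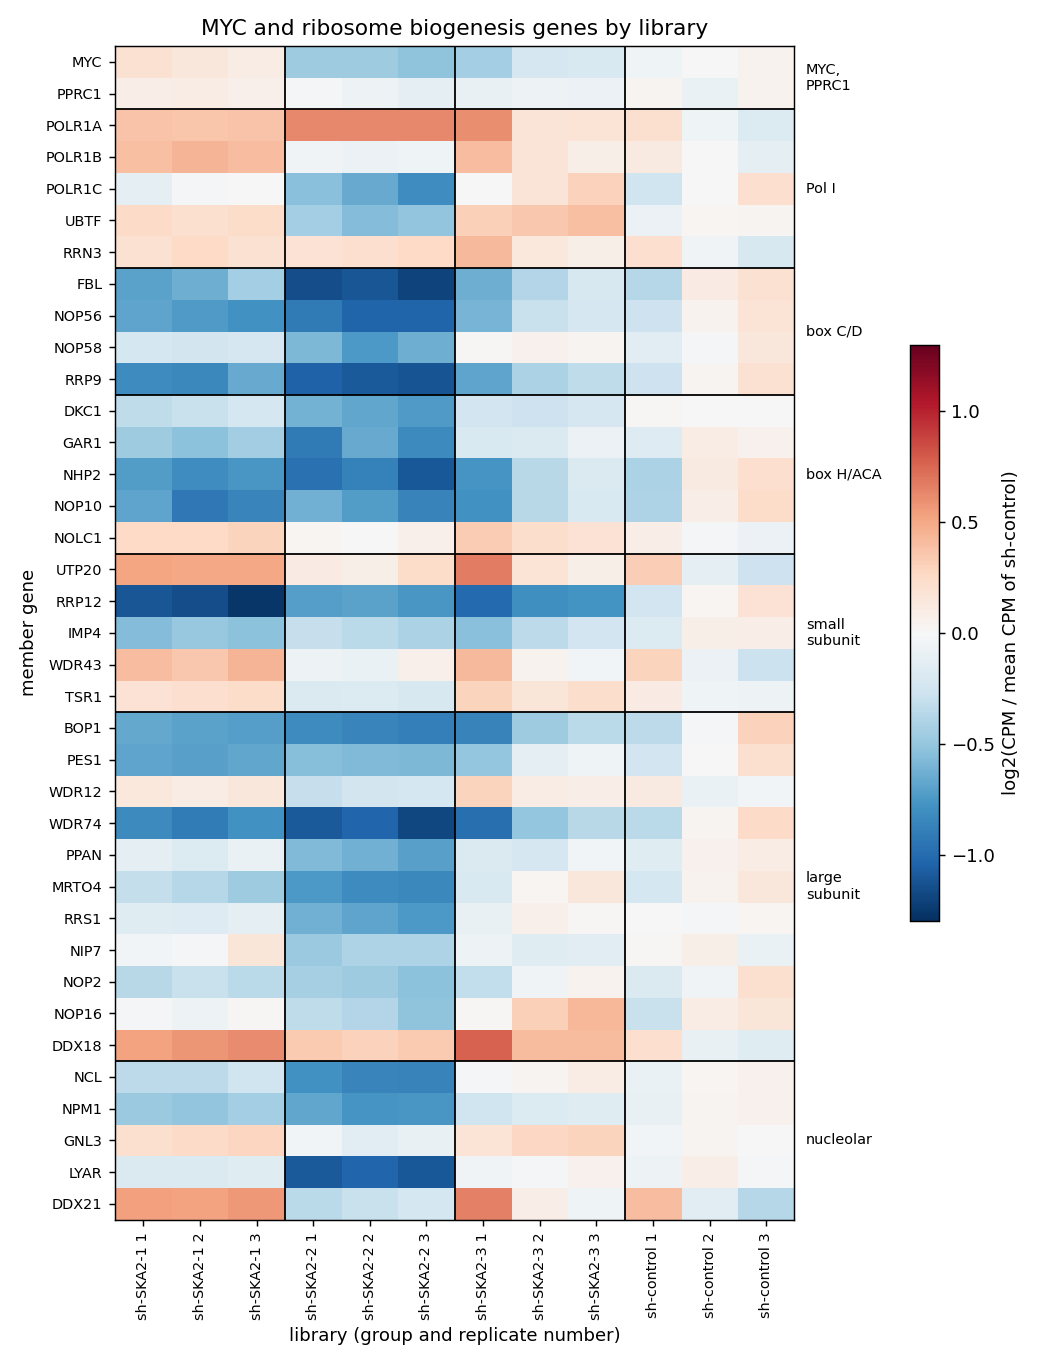
Level of each member in each library as log2 of its CPM over the mean CPM of the 3 sh-control libraries, with libraries in columns and members in rows by role. The sh-SKA2-2 columns are blue for most rows (27 of 37 members fell), and library 1 of sh-SKA2-3 and of sh-control differ from the other libraries of their lines in many rows.

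**Figure D2:**
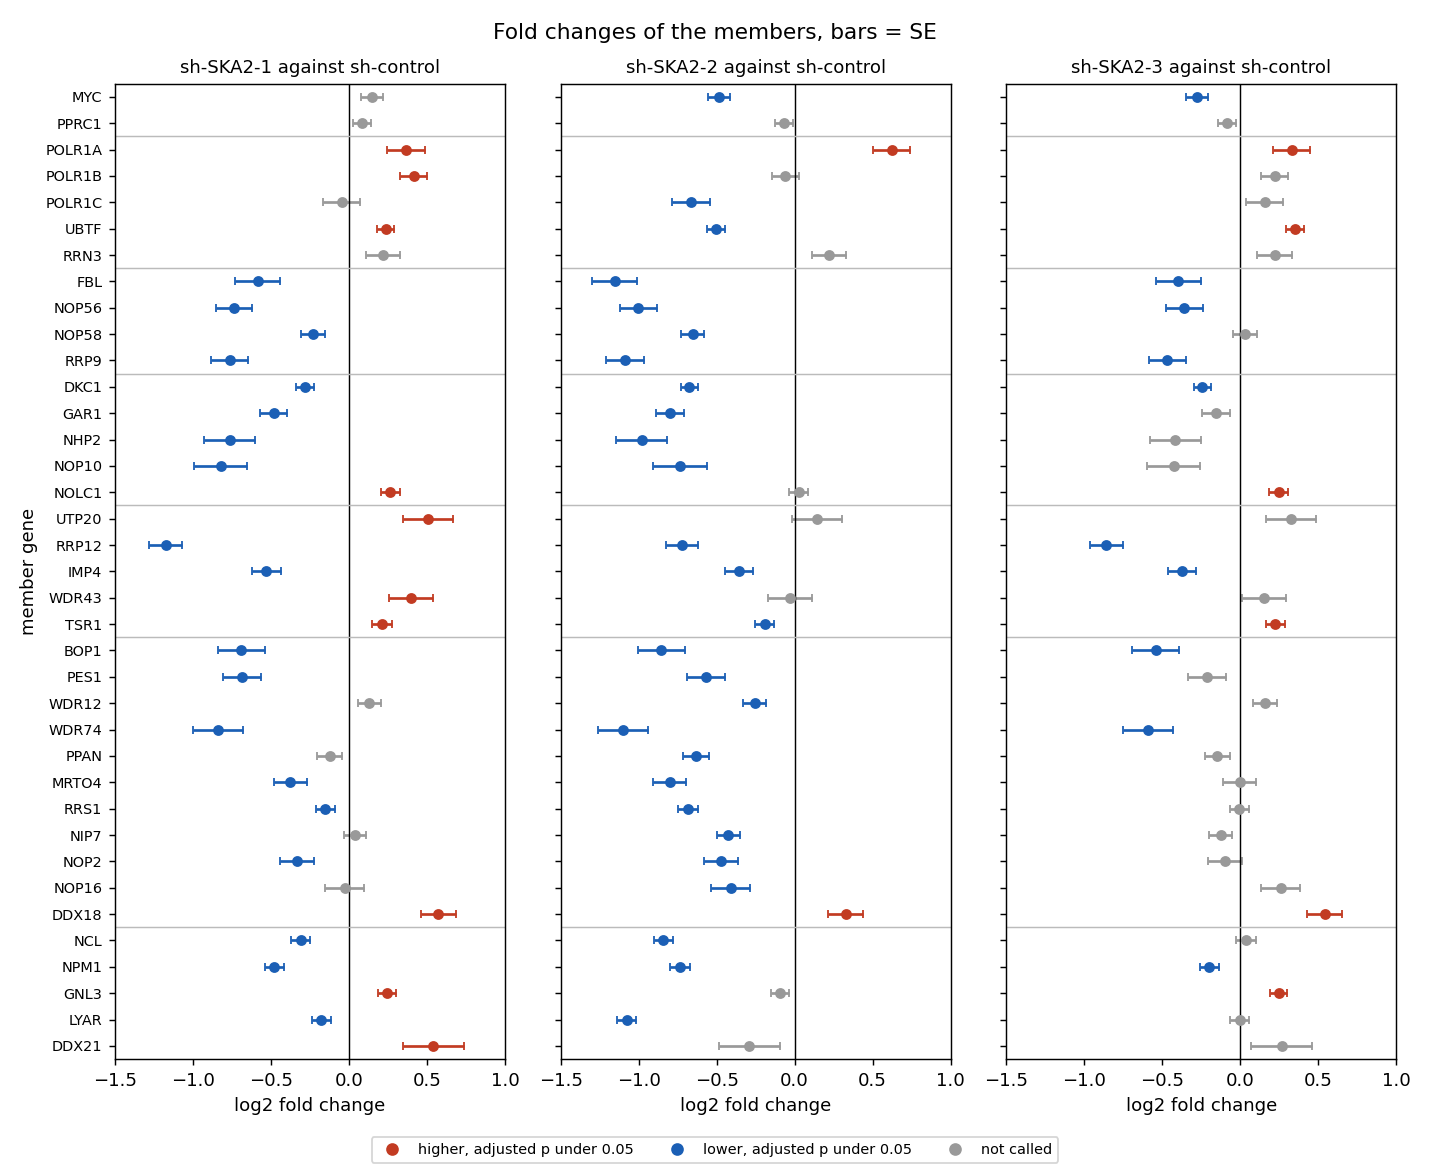
Log2 fold change of each member against sh-control (x axis) with its SE as the bar, 1 panel per hairpin, coloured by the call at an adjusted p under 0.05 in edgeR. Of the 37 members 10 rose and 19 fell in sh-SKA2-1, 2 rose and 27 fell in sh-SKA2-2, and 6 rose and 10 fell in sh-SKA2-3.

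MYC itself (Entrez 4609, chromosome 8, 127735434 to 127741434, plus strand, GRCh38 with GENCODE v29 here and below) fell in 2 of the 3 hairpin lines in the test on counts. It had 363, 350.4 and 338 CPM in the sh-SKA2-1 libraries, 230.3, 229 and 219.9 CPM in sh-SKA2-2 and 233, 272 and 277 CPM in sh-SKA2-3, against 305, 318 and 327 CPM in sh-control. All libraries of sh-SKA2-2 and sh-SKA2-3 lay below all of sh-control, and all of sh-SKA2-1 lay above them. On the log2 scale it differed from sh-control by 0.15 ± 0.071, -0.48 ± 0.071 and -0.28 ± 0.071 for sh-SKA2-1, sh-SKA2-2 and sh-SKA2-3 (SE, adjusted p = 0.0863, 7.57e-05 and 0.0076 in edgeR). The difference in sh-SKA2-1 was not called, but it was called at 0.13 (adjusted p = 0.04999) without library 1 of sh-SKA2-3 and 0.34 (adjusted p = 6.50e-06) when each library's trend with transcript length and GC content was entered as an offset. The falls were -0.28 and -0.17 with these offsets and stayed past the threshold. On the TPM scale (limma on log2(TPM + 1)), which moved the median of all genes by 0.29, 0.33 and 0.12, MYC was called higher in sh-SKA2-1, at 0.50 (adjusted p = 0.000101), and neither fall was called, at -0.069 (adjusted p = 0.321) in sh-SKA2-2 and -0.14 (adjusted p = 0.0911) in sh-SKA2-3. MYC differed between all pairs of hairpin lines, by -0.63 ± 0.071 for sh-SKA2-2 against sh-SKA2-1, -0.43 ± 0.071 for sh-SKA2-3 against sh-SKA2-1 and 0.20 ± 0.071 for sh-SKA2-3 against sh-SKA2-2 (adjusted p = 1.57e-05, 0.00574 and 0.0243 in edgeR). The last of these was lost without library 1, 2 or 3 of sh-SKA2-2 or library 2 or 3 of sh-SKA2-3 (0.21, 0.21, 0.18, 0.17, 0.16 on the log2 scale), and its sign turned on the TPM scale (-0.067).

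PPRC1, a coactivator of the PGC-1 family, had 124, 125 and 123 CPM in the sh-SKA2-1 libraries, 115, 112 and 108 CPM in sh-SKA2-2 and 109, 111 and 111 CPM in sh-SKA2-3, against 119.9, 110.1 and 120.4 CPM in sh-control. Its log2 fold changes of 0.086, -0.069 and -0.082 did not pass the test (adjusted p = 0.21, 0.294 and 0.258 in edgeR). All libraries of sh-SKA2-1 lay above those of sh-control, and the other lines overlapped with it.

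**Figure D3:**
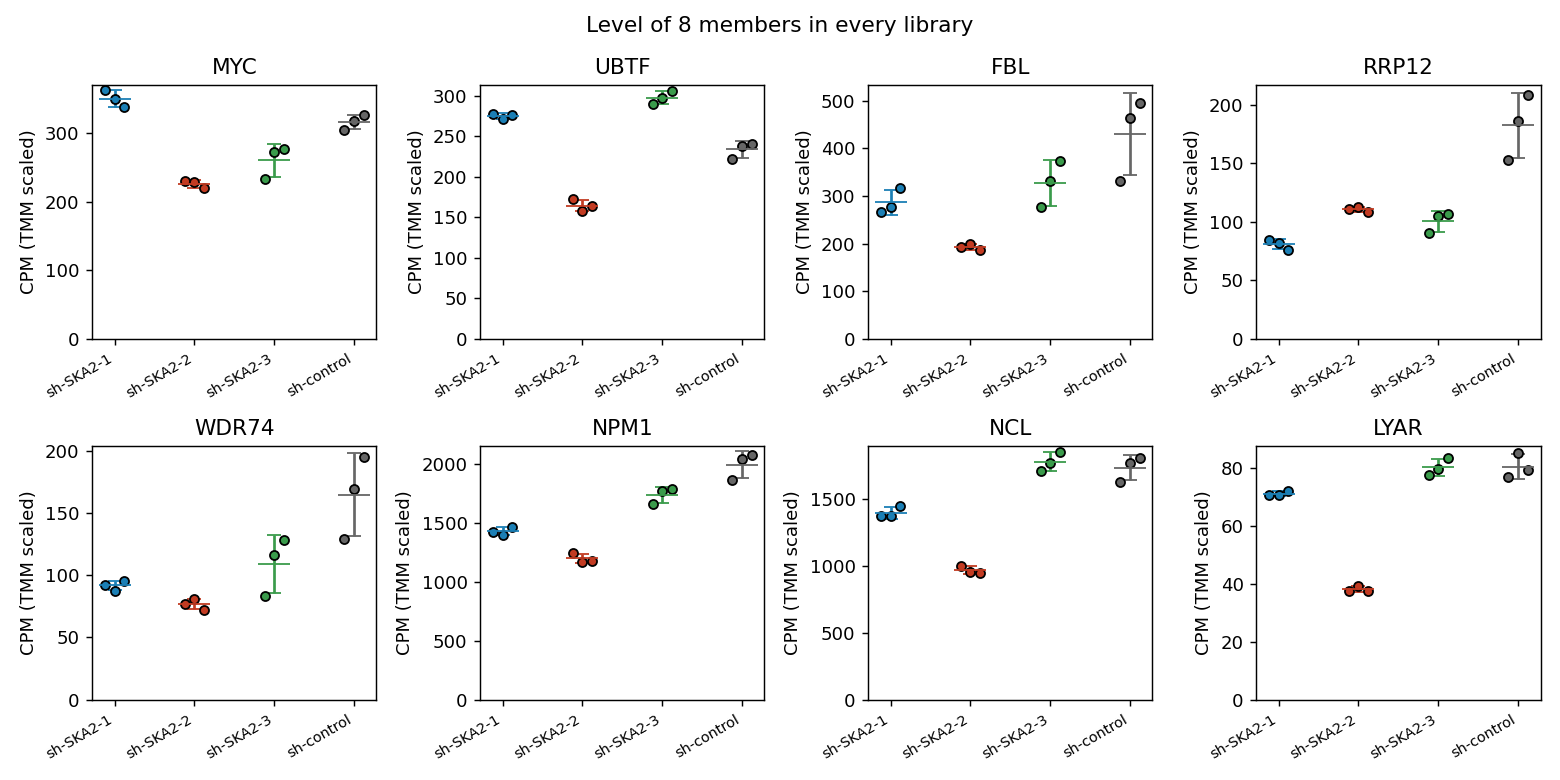
CPM after TMM scaling (y axis, from 0) of 8 members in every library, with points for libraries 1 to 3 from left to right and bars for the mean and SD of each line. MYC lies between 219.9 and 230.3 CPM in sh-SKA2-2 and between 305 and 327 CPM in sh-control, and UBTF is lower in sh-SKA2-2 and higher in sh-SKA2-1 and sh-SKA2-3 than in sh-control.

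The 5 genes of RNA polymerase I transcription did not move one way. In sh-SKA2-1 3 rose and none fell, in sh-SKA2-2 1 rose and 2 fell, and in sh-SKA2-3 2 rose and none fell. In sh-SKA2-2 2 rose without library 1 of sh-control or of sh-SKA2-3, and in sh-SKA2-3 4 rose without library 1 of sh-control and 1 without any of 5 other libraries. UBTF (Entrez 7343, chromosome 17, 44205033 to 44221626, minus strand), the factor that opens ribosomal DNA for the polymerase, had 277, 271 and 276 CPM in the sh-SKA2-1 libraries, 172, 158 and 164 CPM in sh-SKA2-2 and 289, 297 and 306 CPM in sh-SKA2-3, against 222, 238 and 240.3 CPM in sh-control. Its lines did not overlap with sh-control in either direction. The fitted log2 fold changes were 0.23 ± 0.058, -0.51 ± 0.058 and 0.35 ± 0.058 for sh-SKA2-1, sh-SKA2-2 and sh-SKA2-3 (SE, adjusted p = 0.00445, 1.07e-05 and 0.000549 in edgeR), and no single library changed a call. The values with length and GC offsets were 0.44, -0.29 and 0.51, while on the TPM scale the fall in sh-SKA2-2 was not called, at -0.047 (adjusted p = 0.565). POLR1C, a subunit shared by RNA polymerases I and III, had 72.4, 78.2 and 79.5 CPM in the sh-SKA2-1 libraries, 54.4, 50.2 and 45.2 CPM in sh-SKA2-2 and 78.8, 88.8 and 97.5 CPM in sh-SKA2-3, against 66.2, 79.2 and 92.2 CPM in sh-control. Only sh-SKA2-2 was separated from sh-control, with a log2 fold change of -0.67 ± 0.12 (SE, adjusted p = 0.000381 in edgeR), while sh-SKA2-1 and sh-SKA2-3 had -0.046 and 0.16 and were not called.

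POLR1A (Entrez 25885, chromosome 2, 86020216 to 86106155, minus strand), which codes for the largest subunit of RNA polymerase I, had 208, 208 and 208 CPM in the sh-SKA2-1 libraries, 249, 249 and 249 CPM in sh-SKA2-2 and 246, 181 and 183 CPM in sh-SKA2-3, against 187, 155 and 143 CPM in sh-control. In the test, log2 fold changes came to 0.37 ± 0.12, 0.62 ± 0.12 and 0.33 ± 0.12 for sh-SKA2-1, sh-SKA2-2 and sh-SKA2-3 (SE, adjusted p = 0.0193, 0.000546 and 0.0388 in edgeR). The sh-SKA2-1 and sh-SKA2-2 libraries all lay above sh-control, and those of sh-SKA2-3 overlapped with it. In sh-SKA2-1 the call was lost without library 2 or 3 of sh-control, at 0.34 (adjusted p = 0.0651) and 0.28 (adjusted p = 0.0785). In sh-SKA2-3 it was lost without any of 5 libraries, library 2 or 3 of sh-control, library 1 or 3 of sh-SKA2-1 or library 1 of sh-SKA2-3, with values of 0.17 to 0.33. POLR1A has the longest transcript of the members, and with length and GC offsets its log2 fold changes were -0.19, -0.21 and 0.11, so that the sign turned for sh-SKA2-1 and sh-SKA2-2. POLR1B, the second largest subunit, rose in sh-SKA2-1 by 0.41 ± 0.086 (adjusted p = 0.00169 in edgeR), a value of 0.069 (adjusted p = 0.134) with the offsets. In sh-SKA2-3 POLR1B was called higher without library 1 of sh-control, at 0.28 (adjusted p = 0.0175), or library 3 of sh-SKA2-3, at 0.29 (adjusted p = 0.0199). RRN3, the factor that brings the polymerase to its promoter, had 0.22, 0.22 and 0.22 and was not called with all libraries (adjusted p = 0.101, 0.0869 and 0.118 in edgeR). Without library 1 of sh-control it was called higher in all 3 lines, at 0.34 (adjusted p = 0.00771), 0.35 (adjusted p = 0.00613) and 0.35 (adjusted p = 0.00986), and in sh-SKA2-2 also without library 1 of sh-SKA2-3, at 0.22 (adjusted p = 0.0319).

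The box C/D snoRNP genes, whose proteins methylate ribosomal RNA, were called lower in nearly every comparison with sh-control. All 4 fell in sh-SKA2-1 and in sh-SKA2-2 and 3 of 4 in sh-SKA2-3, with median log2 fold changes of -0.66, -1.04 and -0.38, although FBL in sh-SKA2-1 turned to 0.039 with length and GC offsets and NOP58 there to 0.15 on the TPM scale. With these offsets the medians were -0.26, -0.57 and -0.095. All 4 had an effective length of 2059 bases or less. Of all tested genes of those lengths, 54.3%, 61.0% and 31.5% fell in sh-SKA2-1, sh-SKA2-2 and sh-SKA2-3. In sh-SKA2-3 1 of 4 fell without library 2 or 3 of sh-control or library 1 of sh-SKA2-3. FBL (Entrez 2091, chromosome 19, 39834458 to 39846414, minus strand), the methyltransferase itself, had 266, 276 and 317 CPM in the sh-SKA2-1 libraries, 194, 199 and 186 CPM in sh-SKA2-2 and 277, 331 and 373 CPM in sh-SKA2-3, against 332, 464 and 495 CPM in sh-control. Its sh-SKA2-1 and sh-SKA2-2 libraries lay below all of sh-control, and those of sh-SKA2-3 overlapped with it. Log2 fold changes against sh-control were -0.59 ± 0.14, -1.15 ± 0.15 and -0.40 ± 0.14 for sh-SKA2-1, sh-SKA2-2 and sh-SKA2-3 (SE, adjusted p = 0.00434, 2.22e-05 and 0.0392 in edgeR). The call in sh-SKA2-3 was lost on leaving out any of 9 of the 12 libraries (-0.40 to -0.28), the exceptions being library 1 of sh-control, library 3 of sh-SKA2-1 and library 3 of sh-SKA2-3. With length and GC offsets FBL had 0.039, -0.44 and -0.092, and the call remained in sh-SKA2-2 only.

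RRP9 (Entrez 9136, chromosome 3, 51933430 to 51941941, minus strand), a protein of the U3 snoRNP that starts the cutting of the precursor, had 46.5, 45.8 and 52.2 CPM in the sh-SKA2-1 libraries, 39.4, 38.5 and 37.6 CPM in sh-SKA2-2 and 50.9, 61.4 and 65.3 CPM in sh-SKA2-3, against 67.9, 84.2 and 93.6 CPM in sh-control. Every hairpin library lay below every sh-control library. Relative to sh-control, log2 fold changes were -0.77 ± 0.12, -1.09 ± 0.12 and -0.47 ± 0.12 for sh-SKA2-1, sh-SKA2-2 and sh-SKA2-3 (SE, adjusted p = 0.000331, 8.99e-06 and 0.00786 in edgeR), and with the offsets they were -0.22, -0.38 and -0.10, the last not called. NOP56 (Entrez 10528, chromosome 20, 2652145 to 2658393, plus strand), a core scaffold of the particle, had 257, 249 and 239.5 CPM in the sh-SKA2-1 libraries, 218, 201 and 201 CPM in sh-SKA2-2 and 273, 340.0 and 357 CPM in sh-SKA2-3, against 345, 429 and 469 CPM in sh-control. On the log2 scale it differed from sh-control by -0.74 ± 0.12, -1.001 ± 0.12 and -0.36 ± 0.12 for sh-SKA2-1, sh-SKA2-2 and sh-SKA2-3 (SE, adjusted p = 0.000357, 1.35e-05 and 0.0256 in edgeR), with overlap in sh-SKA2-3 only. The sh-SKA2-3 call was lost without library 2 or 3 of sh-control or library 1 of sh-SKA2-3, at -0.33 (adjusted p = 0.0799), -0.26 (adjusted p = 0.108) and -0.25 (adjusted p = 0.0894). NOP58, the partner scaffold, had log2 fold changes of -0.23 in sh-SKA2-1 and -0.65 in sh-SKA2-2, and its call in sh-SKA2-1 was lost without library 3 of sh-control (-0.15).

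The box H/ACA genes, whose particles convert uridine to pseudouridine, gave a similar count in sh-SKA2-1 and sh-SKA2-2, with NOLC1 as the exception. In sh-SKA2-3 1 of these 5 genes fell and 1 rose. DKC1 (the pseudouridine synthase), GAR1, NHP2 and NOP10 all fell in sh-SKA2-1 and in sh-SKA2-2, and DKC1 also in sh-SKA2-3, while on the TPM scale the value of DKC1 in sh-SKA2-1 was 0.091. In sh-SKA2-3 4 fell without library 1 of sh-control and 3 without library 3 of sh-SKA2-3. NHP2 (Entrez 55651, chromosome 5, 178149460 to 178153967, minus strand), an RNA-binding core protein, had 109.5, 103 and 108 CPM in the sh-SKA2-1 libraries, 92.6, 99.0 and 84.4 CPM in sh-SKA2-2 and 107, 142 and 159.6 CPM in sh-SKA2-3, against 137, 196 and 212 CPM in sh-control. NOP10 (Entrez 55505, chromosome 15, 34341713 to 34343177, minus strand), the smallest core protein, had 72.8, 61.5 and 64.6 CPM in the sh-SKA2-1 libraries, 76.2, 71.1 and 64.1 CPM in sh-SKA2-2 and 68.1, 91.0 and 103 CPM in sh-SKA2-3, against 88.7, 124 and 139 CPM in sh-control. In both genes the sh-SKA2-1 and sh-SKA2-2 libraries lay below sh-control, and those of sh-SKA2-3 overlapped with it. The log2 fold changes of NHP2 were -0.76 ± 0.16, -0.98 ± 0.17 and -0.42 ± 0.16 for sh-SKA2-1, sh-SKA2-2 and sh-SKA2-3 (SE, adjusted p = 0.00208, 0.00021 and 0.0535 in edgeR). Those of NOP10 were -0.82 ± 0.17, -0.74 ± 0.17 and -0.43 ± 0.17 for sh-SKA2-1, sh-SKA2-2 and sh-SKA2-3 (SE, adjusted p = 0.00176, 0.00209 and 0.0571 in edgeR). A fit of sh-SKA2-3 and sh-control alone, with the replicate number as a block, was chosen after seeing the data. For sh-SKA2-3 it gave -0.42 (adjusted p = 3.74e-12 in edgeR) for NHP2 and -0.43 (adjusted p = 2.49e-11 in edgeR) for NOP10. Both were also called there without library 1 of sh-control (-0.59 and -0.59) or library 3 of sh-SKA2-3 (-0.55 and -0.56).

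GAR1 (Entrez 54433, chromosome 4, 109815510 to 109824740, plus strand), with the lowest mean CPM of the members, had 38.2, 36.5 and 38.6 CPM in the sh-SKA2-1 libraries, 27.9, 33.5 and 29.7 CPM in sh-SKA2-2 and 46.1, 46.3 and 50.1 CPM in sh-SKA2-3, against 47.1, 56.4 and 55.0 CPM in sh-control. The fitted log2 fold changes were -0.48 ± 0.089, -0.80 ± 0.090 and -0.15 ± 0.088 for sh-SKA2-1, sh-SKA2-2 and sh-SKA2-3 (SE, adjusted p = 0.000864, 9.64e-06 and 0.17 in edgeR), with overlap in sh-SKA2-3. In sh-SKA2-3 GAR1 was called without library 1 of sh-control, at -0.23 (adjusted p = 0.0327). It was also called there in the 2-group fit with the replicate block, chosen after seeing the data, at -0.15 (adjusted p = 0.021). With length and GC offsets the sh-SKA2-1 values of NHP2 and GAR1 were -0.063 and -0.11 and were not called, and that of NOP10 was -0.42 (adjusted p = 0.000263 in edgeR). NOLC1, the chaperone that carries snoRNPs to the nucleolus, rose by 0.27 ± 0.061 in sh-SKA2-1 and 0.25 ± 0.061 in sh-SKA2-3 (adjusted p = 0.00298 and 0.00613 in edgeR).

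Of the 5 genes of small subunit processing, 3 rose and 2 fell in sh-SKA2-1, 3 fell in sh-SKA2-2, and 1 rose and 2 fell in sh-SKA2-3. The 3 that rose in sh-SKA2-1 were UTP20, TSR1 and WDR43, and their number was 0 without library 2 of sh-control and 1 without library 3. In sh-SKA2-3 3 rose without library 1 of sh-control, 2 without library 3 of sh-SKA2-3 and 0 without library 2 of sh-control. RRP12 (Entrez 23223, chromosome 10, 97356358 to 97426076, minus strand), a factor of precursor maturation and export, had 84.3, 82.2 and 76.0 CPM in the sh-SKA2-1 libraries, 111, 112 and 108 CPM in sh-SKA2-2 and 90.4, 105 and 106 CPM in sh-SKA2-3, against 153, 186 and 208 CPM in sh-control. Every hairpin library lay below every sh-control library. In the test, log2 fold changes came to -1.18 ± 0.11, -0.72 ± 0.10 and -0.86 ± 0.10 for sh-SKA2-1, sh-SKA2-2 and sh-SKA2-3 (SE, adjusted p = 6.14e-06, 6.66e-05 and 6.30e-05 in edgeR). They remained -1.04, -0.60 and -0.70 with length and GC offsets, no single library changed a call against sh-control, and this was the furthest fall of a member in sh-SKA2-1 and in sh-SKA2-3. IMP4 (Entrez 92856, chromosome 2, 130342225 to 130347810, plus strand), which links U3 to the precursor, had 81.1, 85.4 and 83.3 CPM in the sh-SKA2-1 libraries, 97.5, 94.3 and 90.2 CPM in sh-SKA2-2 and 82.4, 94.7 and 101 CPM in sh-SKA2-3, against 106, 127 and 128 CPM in sh-control, with no overlap between hairpin and control libraries. Log2 fold changes against sh-control were -0.53 ± 0.091, -0.35 ± 0.091 and -0.37 ± 0.091 for sh-SKA2-1, sh-SKA2-2 and sh-SKA2-3 (SE, adjusted p = 0.000575, 0.00387 and 0.00599 in edgeR), and the sh-SKA2-2 value turned to 0.074 on the TPM scale.

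UTP20 (Entrez 27340, chromosome 12, 101280109 to 101386616, plus strand), a scaffold of the small subunit processome, had 114, 113 and 113 CPM in the sh-SKA2-1 libraries, 86.2, 84.2 and 94.0 CPM in sh-SKA2-2 and 126, 90.0 and 84.0 CPM in sh-SKA2-3, against 99.5, 73.6 and 66.3 CPM in sh-control. Only its sh-SKA2-1 libraries were separated from sh-control. Relative to sh-control, log2 fold changes were 0.51 ± 0.16, 0.14 ± 0.16 and 0.33 ± 0.16 for sh-SKA2-1, sh-SKA2-2 and sh-SKA2-3 (SE, adjusted p = 0.017, 0.435 and 0.115 in edgeR). The call in sh-SKA2-1 was lost without library 2 or 3 of sh-control, at 0.45 (adjusted p = 0.0639) and 0.39 (adjusted p = 0.0699), and the value turned to -0.14 with length and GC offsets. In sh-SKA2-3 a rise was called without library 1 of sh-control, at 0.52 (adjusted p = 0.01), and without library 3 of sh-SKA2-3, at 0.44 (adjusted p = 0.0489). A rise of UTP20 was also called there in the 2-group fit with the replicate block, chosen after seeing the data, at 0.33 (adjusted p = 6.14e-08). TSR1 (Entrez 55720, chromosome 17, 2322503 to 2337507, minus strand), a factor of late small subunit maturation, had 207, 211 and 215 CPM in the sh-SKA2-1 libraries, 159.8, 161 and 157 CPM in sh-SKA2-2 and 222, 203 and 213 CPM in sh-SKA2-3, against 196, 176 and 174 CPM in sh-control, with no overlap with sh-control in any line. On the log2 scale it differed from sh-control by 0.21 ± 0.063, -0.19 ± 0.063 and 0.23 ± 0.063 for sh-SKA2-1, sh-SKA2-2 and sh-SKA2-3 (SE, adjusted p = 0.0115, 0.0155 and 0.0123 in edgeR). These calls were lost without library 2 of sh-control in sh-SKA2-1 and sh-SKA2-3, at 0.19 (adjusted p = 0.0515) and 0.20 (adjusted p = 0.0555), and without library 1 of sh-control in sh-SKA2-2, at -0.13 (adjusted p = 0.0532). On the TPM scale the sh-SKA2-2 value turned to 0.25. Its sh-SKA2-1 call was lost with length and GC offsets, at 0.0049 (adjusted p = 0.92). WDR43, a protein of the small subunit processome, had 192, 186 and 198 CPM in the sh-SKA2-1 libraries, 139, 137 and 152 CPM in sh-SKA2-2 and 194, 149.6 and 142 CPM in sh-SKA2-3, against 178, 138 and 120.0 CPM in sh-control. It rose by 0.40 ± 0.14 in sh-SKA2-1 (SE, adjusted p = 0.0284 in edgeR), a call lost without library 2 or 3 of sh-control, at 0.36 (adjusted p = 0.0882) and 0.28 (adjusted p = 0.113), without library 1, 2 or 3 of sh-SKA2-1, at 0.40, 0.41 and 0.38, and with the offsets, at 0.11 (adjusted p = 0.196). In sh-SKA2-2 and sh-SKA2-3 it had -0.029 and 0.15, and in sh-SKA2-3 it was called without library 1 of sh-control, at 0.33 (adjusted p = 0.0397).

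The 11 genes of large subunit processing fell almost together in sh-SKA2-2, where 10 fell and DDX18, a helicase, rose (0.33 ± 0.11), a call lost without library 2 or 3 of sh-control (0.28 and 0.25). In sh-SKA2-1 6 fell and 1 rose, and in sh-SKA2-3 2 fell and 1 rose. Without library 1 of sh-control 2 rose in sh-SKA2-1, and 2 rose and 4 fell in sh-SKA2-3. In sh-SKA2-3 1 fell without library 3 of sh-control and 2 rose without library 1 of sh-SKA2-3. With length and GC offsets BOP1, PPAN, NOP16 and DDX18 changed sign in sh-SKA2-2, and on the TPM scale WDR12, NIP7 and NOP16 did. WDR74 (Entrez 54663, chromosome 11, 62832342 to 62841809, minus strand), which acts in early large subunit assembly, had 92.5, 87.7 and 95.4 CPM in the sh-SKA2-1 libraries, 77.3, 80.8 and 72.4 CPM in sh-SKA2-2 and 83.3, 116 and 129 CPM in sh-SKA2-3, against 129, 169 and 196 CPM in sh-control. All hairpin libraries lay below all sh-control libraries. The fitted log2 fold changes were -0.84 ± 0.16, -1.10 ± 0.16 and -0.59 ± 0.16 for sh-SKA2-1, sh-SKA2-2 and sh-SKA2-3 (SE, adjusted p = 0.00109, 7.86e-05 and 0.0107 in edgeR), and with the offsets they were -0.26, -0.41 and -0.29, each still called. MRTO4 (Entrez 51154, chromosome 1, 19251539 to 19260128, plus strand), a placeholder for a stalk protein, had 95.4, 91.6 and 85.9 CPM in the sh-SKA2-1 libraries, 70.2, 66.9 and 65.9 CPM in sh-SKA2-2 and 103, 119.8 and 131 CPM in sh-SKA2-3, against 101, 122 and 131 CPM in sh-control. In the test, log2 fold changes came to -0.38 ± 0.11, -0.80 ± 0.11 and -0.0017 ± 0.11 for sh-SKA2-1, sh-SKA2-2 and sh-SKA2-3 (SE, adjusted p = 0.00925, 3.53e-05 and 0.993 in edgeR), with overlap in sh-SKA2-3, and on the TPM scale the sh-SKA2-1 value turned to 0.0081.

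BOP1 (Entrez 23246, chromosome 8, 144262102 to 144291370, minus strand) forms the PeBoW complex with PES1 and WDR12. It had 116, 114 and 112 CPM in the sh-SKA2-1 libraries, 104, 102 and 99.2 CPM in sh-SKA2-2 and 101, 134 and 145 CPM in sh-SKA2-3, against 145, 180.4 and 226 CPM in sh-control, with no overlap between hairpin and control libraries. Log2 fold changes against sh-control were -0.69 ± 0.15, -0.85 ± 0.15 and -0.54 ± 0.15 for sh-SKA2-1, sh-SKA2-2 and sh-SKA2-3 (SE, adjusted p = 0.00233, 0.000311 and 0.012 in edgeR). In sh-SKA2-3 the call was lost without library 3 of sh-control, at -0.37 (adjusted p = 0.0517). With length and GC offsets the values were 0.063, 0.26 and -0.026, a rise that passed the test in sh-SKA2-2 (adjusted p = 0.000216 in edgeR). Of its partners, PES1 had log2 fold changes of -0.69, -0.57 and -0.22 and was called in sh-SKA2-1 and sh-SKA2-2, and in sh-SKA2-3 without library 1 of sh-control, at -0.32 (adjusted p = 0.0265). WDR12 had 0.13, -0.25 and 0.16 and was called lower in sh-SKA2-2. Without library 1 of sh-control it was called higher in sh-SKA2-1 and sh-SKA2-3, at 0.19 (adjusted p = 0.0375) and 0.22 (adjusted p = 0.0246). PPAN, NIP7 and NOP16 were called lower in sh-SKA2-2 (-0.63, -0.43 and -0.41). PPAN was also called lower without library 1 of sh-control in sh-SKA2-1 and sh-SKA2-3, at -0.20 (adjusted p = 0.0327) and -0.22 (adjusted p = 0.0243). The call of NOP16 in sh-SKA2-2 was lost without library 3 of sh-SKA2-2, at -0.36 (adjusted p = 0.0533), and in sh-SKA2-3 it was called higher without library 1 of sh-SKA2-3, at 0.37 (adjusted p = 0.0262). No single library changed a call of NIP7. RRS1, which brings the 5S particle into the large subunit, and NOP2, a methyltransferase of its ribosomal RNA, fell in sh-SKA2-1, with log2 fold changes of -0.15 ± 0.062 and -0.33 ± 0.11 (adjusted p = 0.04977 and 0.0192 in edgeR), and in sh-SKA2-2, with -0.69 ± 0.063 and -0.47 ± 0.11. The sh-SKA2-1 call of RRS1 was lost without any of 9 libraries (-0.17 to -0.14), and that of NOP2 without library 3 of sh-control or library 1 or 3 of sh-SKA2-1 (-0.33 to -0.21) and with the offsets, at -0.15 (adjusted p = 0.0636).

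Among the abundant nucleolar proteins, 3 of 5 fell in sh-SKA2-1 and in sh-SKA2-2 and 1 in sh-SKA2-3, and 2 rose in sh-SKA2-1 and 1 in sh-SKA2-3. In sh-SKA2-1 1 rose without library 2 or 3 of sh-control or any library of sh-SKA2-1. In sh-SKA2-3 2 rose without library 1 of sh-control, and none fell without library 2 or 3 of sh-control or library 1 of sh-SKA2-3. LYAR (Entrez 55646, chromosome 4, 4267701 to 4290169, minus strand), a growth-regulating nucleolar protein, had 70.7, 70.7 and 72.2 CPM in the sh-SKA2-1 libraries, 37.7, 39.4 and 37.4 CPM in sh-SKA2-2 and 77.8, 79.6 and 83.6 CPM in sh-SKA2-3, against 77.1, 85.4 and 79.2 CPM in sh-control. The sh-SKA2-2 libraries held less of it than any other library, and sh-SKA2-3 overlapped with sh-control. Relative to sh-control, log2 fold changes were -0.18 ± 0.062, -1.08 ± 0.063 and -0.0041 ± 0.062 for sh-SKA2-1, sh-SKA2-2 and sh-SKA2-3 (SE, adjusted p = 0.0254, 5.84e-08 and 0.962 in edgeR). The sh-SKA2-1 call was lost without library 2 of sh-control, at -0.13 (adjusted p = 0.116), or without library 1, 2 or 3 of sh-SKA2-1, at -0.17, -0.19 and -0.19, and the value turned to 0.20 on the TPM scale. NCL (Entrez 4691, chromosome 2, 231453531 to 231483641, minus strand), nucleolin, a chaperone of ribosomal RNA, had 1372, 1373 and 1448 CPM in the sh-SKA2-1 libraries, 1002, 953 and 948 CPM in sh-SKA2-2 and 1708, 1772 and 1852 CPM in sh-SKA2-3, against 1629.7, 1767 and 1803 CPM in sh-control. On the log2 scale it differed from sh-control by -0.31 ± 0.062, -0.84 ± 0.063 and 0.036 ± 0.062 for sh-SKA2-1, sh-SKA2-2 and sh-SKA2-3 (SE, adjusted p = 0.00139, 3.63e-07 and 0.656 in edgeR), with overlap in sh-SKA2-3 and 0.071 for sh-SKA2-1 on the TPM scale. With length and GC offsets the sh-SKA2-2 values of LYAR and NCL were -0.98 and -1.06.

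NPM1 (Entrez 4869, chromosome 5, 171387116 to 171411137, plus strand), nucleophosmin, had 1424, 1397 and 1466 CPM in the sh-SKA2-1 libraries, 1243, 1171 and 1178 CPM in sh-SKA2-2 and 1661, 1765 and 1783 CPM in sh-SKA2-3, against 1859.7, 2037 and 2076 CPM in sh-control. All hairpin libraries lay below all sh-control libraries. The fitted log2 fold changes were -0.48 ± 0.063, -0.73 ± 0.063 and -0.20 ± 0.063 for sh-SKA2-1, sh-SKA2-2 and sh-SKA2-3 (SE, adjusted p = 9.99e-05, 1.12e-06 and 0.0226 in edgeR), and the smallest of them was lost without library 2 or 3 of sh-control or library 1 of sh-SKA2-3, at -0.18 (adjusted p = 0.079), -0.17 (adjusted p = 0.076) and -0.17 (adjusted p = 0.0742). GNL3, nucleostemin, rose by 0.24 ± 0.057 in sh-SKA2-1 and 0.25 ± 0.057 in sh-SKA2-3 (adjusted p = 0.00343 and 0.00479 in edgeR). DDX21, a nucleolar helicase, rose by 0.54 ± 0.20 in sh-SKA2-1 (SE, adjusted p = 0.0302 in edgeR), a call lost without library 2 or 3 of sh-control or library 1, 2 or 3 of sh-SKA2-1 (0.38 to 0.54) and with the offsets, at 0.13 (adjusted p = 0.215). In sh-SKA2-2 and sh-SKA2-3 it had -0.29 and 0.27, and in sh-SKA2-3 it was called higher without library 1 of sh-control, at 0.51 (adjusted p = 0.0206).

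The hairpin lines were also compared with each other, and most members were lower in sh-SKA2-2 than in either of the others. Against sh-SKA2-1, 1 member was higher in sh-SKA2-2 (28.2% of all tested genes) and 24 were lower (29.4%), with a median of -0.36. The member that was higher was RRP12, by 0.45 ± 0.11, and 2 members were higher without library 1 of sh-control or of sh-SKA2-3. In sh-SKA2-3 against sh-SKA2-2, 27 members were higher (33.4%) and 1 was lower (31.9%), with a median of 0.42. The furthest apart was LYAR, at 1.07 ± 0.063, followed by NCL at 0.88 ± 0.063 and UBTF at 0.85 ± 0.058 (adjusted p = 8.97e-08, 3.85e-07 and 2.58e-07 in edgeR). The single lower member, POLR1A (-0.29 ± 0.12), was not called on leaving out any of 9 libraries (-0.30 to -0.22), and its value turned to 0.31 with length and GC offsets. In sh-SKA2-3 against sh-SKA2-1, 6 members were higher (4.75%) and 1, MYC, was lower (4.70%), with a median of 0.15. Without library 1 of sh-SKA2-3, 17 were higher and 5 lower there. The number that was higher was 0 without library 1 or 2 of sh-SKA2-1, 1 without library 3 of sh-SKA2-1 or library 2 or 3 of sh-SKA2-3, and 2 without library 2 of sh-control or library 1, 2 or 3 of sh-SKA2-2. SKA2 itself did not differ between these lines past the threshold (log2 differences of 0.075, 0.15 and 0.075 for sh-SKA2-2 against sh-SKA2-1, sh-SKA2-3 against sh-SKA2-1 and sh-SKA2-3 against sh-SKA2-2, adjusted p = 0.473, 0.243 and 0.452 in edgeR).

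Transcript length moved with the members' fold changes. The trend of the counts over all genes, in log2 units per doubling of length and relative to the mean library, was 0.081 to 0.11 in the sh-SKA2-1 libraries, 0.15 to 0.20 in sh-SKA2-2, and 0.092, -0.12 and -0.17 in libraries 1, 2 and 3 of sh-SKA2-3, against -0.057, -0.24 and -0.32 in libraries 1, 2 and 3 of sh-control. The trend with GC content differed too. Per percent of GC it was 0.010, 0.027 and 0.038 in libraries 1, 2 and 3 of sh-control. It was -0.0096 to -0.0070 in sh-SKA2-1, -0.021 to -0.013 in sh-SKA2-2, and -0.018, 0.0072 and 0.011 in libraries 1, 2 and 3 of sh-SKA2-3. Among the 18 members with an effective length of 2203 bases or more, 9 rose and 5 fell in sh-SKA2-1, 2 rose and 9 fell in sh-SKA2-2, and 5 rose and 4 fell in sh-SKA2-3. Of all tested genes of those lengths, 42.4% and 20.6% rose and fell in sh-SKA2-1, 47.4% and 26.6% in sh-SKA2-2 and 29.003% and 20.4% in sh-SKA2-3. Among the 19 members of 2059 bases or less, 1 rose and 14 fell in sh-SKA2-1, none rose and 18 fell in sh-SKA2-2, and 1 rose and 6 fell in sh-SKA2-3. The shares of all tested genes of those lengths were 9.03% and 54.3% in sh-SKA2-1, 14.2% and 60.989% in sh-SKA2-2 and 12.4% and 31.5% in sh-SKA2-3.

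The longer members had median log2 fold changes of 0.22, -0.22 and 0.19 in sh-SKA2-1, sh-SKA2-2 and sh-SKA2-3, beside 0.20, 0.25 and 0.11 over all tested genes of those lengths. The shorter members had medians of -0.48, -0.74 and -0.15, beside -0.38, -0.50 and -0.17. The members were thus close to other genes of their length in sh-SKA2-1 and sh-SKA2-3, and below them in sh-SKA2-2 in both length classes, and no test of this was made. Across the 37 members, the log2 fold change and log2 length had a Pearson r of 0.62, 0.69 and 0.47, a description over genes that share the same libraries. Over all tested genes r was 0.45, 0.40 and 0.25. The members had -0.069, -0.25 and 0.059 once length and GC offsets were used. The offsets are built to take out each library's trend with length, so a smaller r with them is no separate result. With these offsets 9 members rose and 16 fell in sh-SKA2-1, 2 rose and 32 fell in sh-SKA2-2 with a median of -0.36, and 10 rose and 10 fell in sh-SKA2-3. The medians over all tested genes with the offsets were 0.033, 0.015 and 0.015 in sh-SKA2-1, sh-SKA2-2 and sh-SKA2-3. The shares of all tested genes called with the offsets were not computed, so these counts have no such reference.

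**Figure D4:**
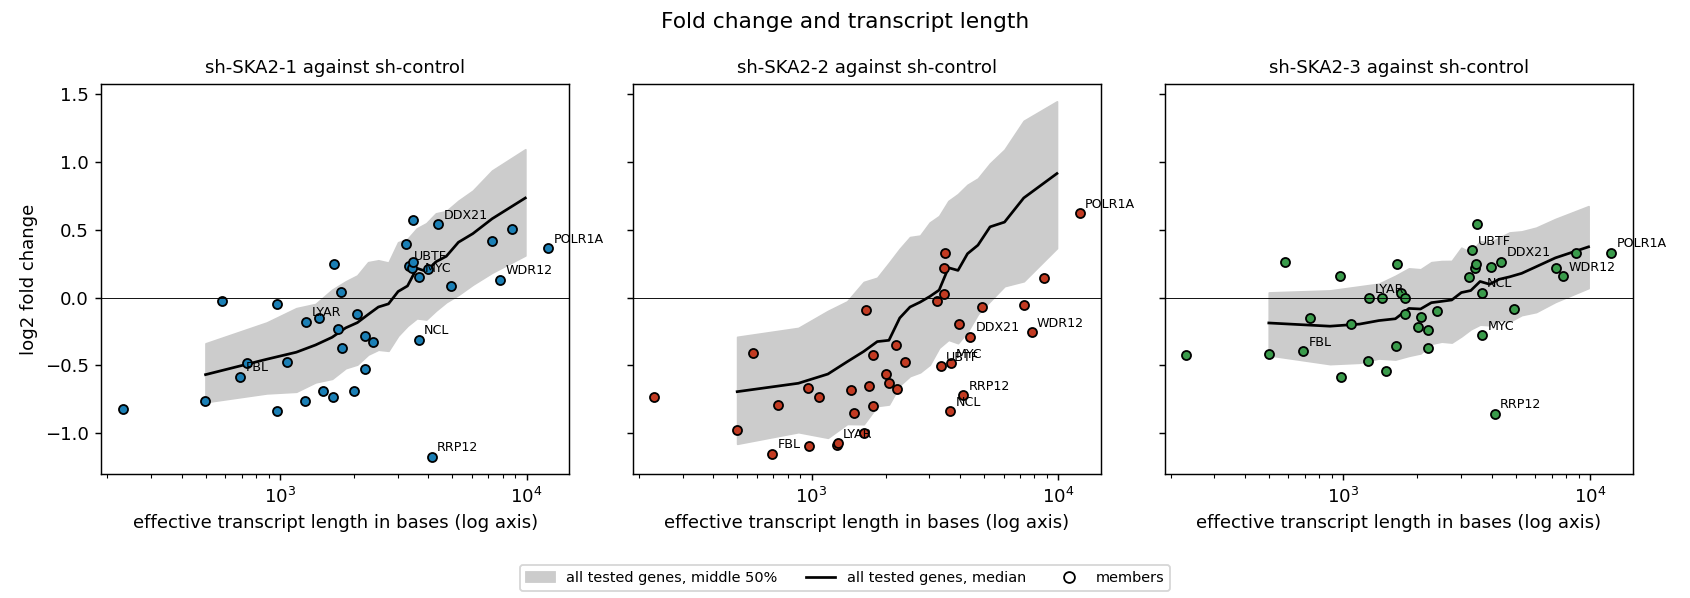
Log2 fold change against sh-control (y axis) over the effective transcript length (log x axis) of the members (points) in each hairpin line, with the median and the middle 50% of all tested genes in 20 bins of length. In sh-SKA2-2 most members lie below the median of genes of their length, and RRP12 lies far below it in all 3 panels.

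Other factors of ribosome biogenesis were called lower more often than higher in sh-SKA2-2 too. Of 47 further genes of small subunit maturation 7 rose and 27 fell there, of 53 of large subunit maturation 7 rose and 29 fell, and of 14 of the RNA exosome, which trims the precursor ends, 1 rose and 12 fell. Their median log2 fold changes in sh-SKA2-2 were -0.31, -0.34 and -0.67, and -0.39, -0.43 and -0.58 with length and GC offsets, while on the TPM scale the first pair turned to 0.14 and 0.15, below the 0.33 by which that scale moved all genes. In sh-SKA2-1 the same lists had 11 higher and 21 lower, 9 and 27, and 4 and 5 genes, and in sh-SKA2-3 12 and 8, 5 and 14, and 4 and 3. Of all tested genes, 31.5% rose and 31.5% fell in sh-SKA2-1, 36.6% and 37.8% in sh-SKA2-2, and 23.6% and 24.0% in sh-SKA2-3. The small subunit factors that rose and the large subunit factors that fell in sh-SKA2-3 were near these shares. NIFK, a partner of the Ki-67 protein that acts in large subunit processing, had log2 fold changes of -0.60 ± 0.078, -1.51 ± 0.080 and -0.36 ± 0.077 in sh-SKA2-1, sh-SKA2-2 and sh-SKA2-3. EXOSC5, an exosome core subunit, had log2 fold changes of -1.13 ± 0.16, -1.90 ± 0.17 and -0.90 ± 0.16 in sh-SKA2-1, sh-SKA2-2 and sh-SKA2-3 (adjusted p = 0.000189, 1.54e-06 and 0.001 in edgeR). For the small subunit factors, in sh-SKA2-2 the number that rose was 4 without library 1 or 2 of sh-SKA2-2 or library 2 of sh-control and 3 without library 3 of sh-control. For the small subunit factors, in sh-SKA2-3 the number that fell was 5 without library 1 of sh-SKA2-3, 13 without library 1 of sh-control and 4 without library 2 or 3 of sh-control. For the large subunit factors, in sh-SKA2-2 the number that rose was 4 without library 3 of sh-control. For the large subunit factors, in sh-SKA2-3 the number that rose was 9 without library 1 of sh-control. For the large subunit factors, in sh-SKA2-3 the number that fell was 9 without library 2 of sh-control and 8 without library 3 of sh-control. For the exosome, in sh-SKA2-1 the number that rose was 2 without library 1, 2 or 3 of sh-SKA2-1. For the exosome, in sh-SKA2-3 the number that rose was 2 without library 2 of sh-control. For the exosome, in sh-SKA2-3 the number that fell was 1 without library 1 of sh-SKA2-3 or library 2 or 3 of sh-control and 5 without library 1 of sh-control. Leaving out 1 library moved the numbers that fell in sh-SKA2-2 between 25 and 31 and 28 and 31, for the small and the large subunit factors, and that of the exosome was 12 in each case.

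Of 13 other genes of RNA polymerase I, 7 rose and 5 fell in sh-SKA2-1, 5 and 6 in sh-SKA2-2, and 3 and 3 in sh-SKA2-3. Shares of all tested genes that rose and fell were 31.5% and 31.5%, 36.6% and 37.8%, and 23.6% and 24.0% in these lines. For these genes, in sh-SKA2-1 the number that rose was 3 without library 1 of sh-SKA2-1 or library 2 of sh-control, 2 without library 2 of sh-SKA2-1 or library 3 of sh-control and 4 without library 3 of sh-SKA2-1. For these genes, in sh-SKA2-3 the number that rose was 5 without library 1 of sh-control. POLR1E, a subunit of the polymerase, had log2 fold changes of -0.81 ± 0.073, -0.80 ± 0.073 and -0.68 ± 0.073, and BAZ2A, a silencer of ribosomal DNA, rose by 2.09 ± 0.15 in sh-SKA2-2 (adjusted p = 2.99e-07 in edgeR). Of 21 genes of RNA polymerase III and its factors, 8 rose and 8 fell, 5 and 7, and 5 and 4 in sh-SKA2-1, sh-SKA2-2 and sh-SKA2-3. GTF3A, the 5S ribosomal RNA factor TFIIIA, had 28.0, 26.2 and 27.1 CPM in sh-SKA2-1, 32.4, 30.4 and 29.7 in sh-SKA2-2 and 26.2, 31.5 and 32.8 in sh-SKA2-3, against 82.4, 109 and 110.1 CPM in sh-control. In the test, log2 fold changes came to -1.89 ± 0.12, -1.71 ± 0.12 and -1.74 ± 0.12 (adjusted p = 3.20e-07, 2.09e-07 and 6.53e-07 in edgeR), with no overlap. Of 11 other snoRNP proteins and assembly factors, 4 rose and 5 fell, 1 and 6, and 4 and 0. For the snoRNP factors, in sh-SKA2-1 the number that fell was 3 without library 2 of sh-SKA2-1 or library 2 or 3 of sh-control. For the snoRNP factors, in sh-SKA2-3 the number that fell was 2 without library 3 of sh-SKA2-3 and 3 without library 1 of sh-control. For the RNA polymerase III genes, in sh-SKA2-1 the number that fell was 5 without library 2 or 3 of sh-SKA2-1 or library 2 or 3 of sh-control. For the RNA polymerase III genes, in sh-SKA2-3 the number that rose was 3 without library 1 of sh-SKA2-3 or library 2 or 3 of sh-control.

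Partners, opponents and relatives of MYC were called in both directions. Of 12 tested genes of this kind, 3 rose and 8 fell in sh-SKA2-1, 4 and 4 in sh-SKA2-2, and 3 and 6 in sh-SKA2-3, where 31.5% and 31.5%, 36.6% and 37.8%, and 23.6% and 24.0% of all tested genes did. The counts in sh-SKA2-2, and the number that rose in the other lines, were thus near these shares. MLXIPL, a glucose-responsive factor that pairs with the MAX-like protein MLX, had log2 fold changes of -2.34 ± 0.19, -2.43 ± 0.19 and -2.12 ± 0.18. The paralogue MYCL had -0.81 ± 0.14, -1.16 ± 0.14 and -0.86 ± 0.14, and MXD4, a repressor that competes with MYC for MAX, had 0.78 ± 0.11, 1.23 ± 0.11 and 0.82 ± 0.11 (adjusted p between 5.07e-07 and 0.000548 in edgeR for these 9 values). Of 30 known MYC targets outside ribosome biogenesis, 8 rose and 17 fell in sh-SKA2-1, 3 and 25 in sh-SKA2-2, and 8 and 13 in sh-SKA2-3, with medians of -0.41, -0.80 and -0.14. With length and GC offsets these medians were -0.060, -0.55 and -0.088, so that most of the fall remained in sh-SKA2-2 and little in sh-SKA2-1. ODC1, the first enzyme of polyamine synthesis, had -0.83 ± 0.056, -1.01 ± 0.056 and -0.49 ± 0.055, and SHMT2, a mitochondrial enzyme of serine and glycine metabolism, had -0.98 ± 0.10, -1.65 ± 0.10 and -0.99 ± 0.10. CDCA7, another gene of this list, was lower in sh-SKA2-2 only. Its mean was 78.0 CPM in sh-SKA2-1, 17.2 in sh-SKA2-2 and 60.4 in sh-SKA2-3, against 57.8 CPM in sh-control.

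Genes of proliferation moved with the line as well. Of 15 such genes none rose and 14 fell in sh-SKA2-2, with a median of -1.34, whereas 7 rose and 2 fell in sh-SKA2-1 and 10 rose and 1 fell in sh-SKA2-3, with medians of 0.12 and 0.31. Among all tested genes 36.6% rose and 37.8% fell in sh-SKA2-2, 31.5% and 31.5% in sh-SKA2-1, and 23.6% and 24.0% in sh-SKA2-3. For the proliferation genes, in sh-SKA2-1 the number that fell was 1 without library 1 of sh-SKA2-1 and 0 without library 2 or 3 of sh-control. CDK1, the mitotic kinase, had 164, 156 and 162 CPM in sh-SKA2-1, 44.2, 45.5 and 47.5 in sh-SKA2-2 and 196, 163 and 168 in sh-SKA2-3, against 125, 124 and 119 CPM in sh-control, and its log2 fold changes were 0.39 ± 0.073, -1.42 ± 0.076 and 0.52 ± 0.074 (adjusted p = 0.000976, 2.87e-08 and 0.000189 in edgeR). The lower level of the members in sh-SKA2-2 thus came with lower proliferation genes and with a lower summed level of the epithelial markers, and the part of either in it was not tested.

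**Figure D5:**
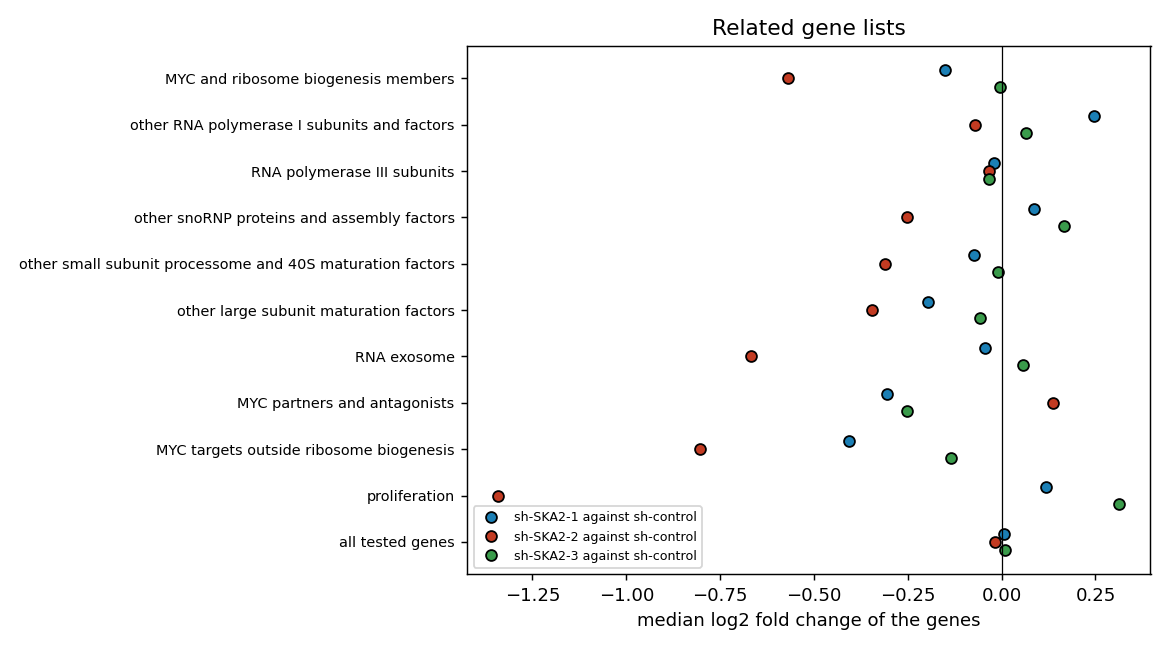
Median log2 fold change against sh-control (x axis) of the members, of 9 related gene lists and of all tested genes, with 1 point per hairpin line. The sh-SKA2-2 points of the members (-0.57), the RNA exosome (-0.67), the MYC targets (-0.80) and the proliferation genes (-1.34) lie left of those of the other lines.

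Some members share exon bases with another gene, and the library preparation is not described as keeping the strand, so their reads cannot be fully assigned. TSR1 shares 1146 bases with SRR, NHP2 379 with RMND5B, PES1 246 with TCN2, NIP7 238 with COG8, NOP16 227 with HIGD2A, IMP4 125 with CCDC115 and POLR1C 100 with XPO5, each on opposite strands, and PPAN shares 1447 bases with the readthrough gene PPAN-P2RY11. Genes without deposited values overlap too. On the same strand NOP2 shares 2538 bases with AC006064.6, RRS1 194 with AC009879.2, WDR74 191 with RNU2-2P and DKC1 129 with SNORA56. On opposite strands RRP12 shares 256 bases with AL355490.2, UBTF 216 with AC003102.1, WDR74 203 with AP001160.1 and POLR1C 127 with AL355802.2.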

How the data were processed

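Per the labels' protocols, RNA of 12 libraries was extracted with Trizol, enriched on oligo(dT) beads, primed with random hexamers with no step named that marks the strand, and sequenced on the BGISEQ-500. The submitters' processing notes name HISAT, Bowtie2, RSEM and DESeq2 and the build GRCh38.p13. The authors deposited expected counts per gene, which need not be whole, and per the file headers TPM and FPKM values. Columns of 15 averages were not used. The FPKM column of the deposited table served only to derive effective lengths. Expected counts were rounded, filtered with filterByExpr (12868 of 17303 genes kept), scaled by TMM and tested in edgeR 4.0.16 (R 4.3.3) with its quasi-likelihood test, 2-sided, over all 12 libraries in 4 groups. Every adjusted p in the text comes from this test or, for alternatives, the same test in edgeR with the change named (limma for the TPM scale), adjusted by Benjamini-Hochberg over all tested genes. SE is the absolute log2 fold change over the square root of F. Length and GC offsets were each library's smooth trend of log2 CPM on both (mgcv 1.9.3). Limma 3.58.1 and DESeq2 1.42.0 were alternatives. The script was tested on simulated data. The members and lists were chosen with earlier results of these data known. Members given by library are MYC, the 3 with the largest change of each role and those called in opposite directions. Genes named from a list are among its 4 with the smallest adjusted p, and those whose calls kept in every alternative were preferred after their values were seen. Same-numbered libraries of sh-SKA2-3 and sh-control deviated together (correlations of 0.170 to 0.728), those of other pairs of lines did not (-0.247 to 0.0614). Within sh-SKA2-3 and sh-control, library 2 of each line also deviated with library 3 of the other (0.230 and 0.391). Both values lie above the 0.170 of the libraries numbered 2. Deviations were taken from each line's own mean, so a deviation shared by library 1 also pushes libraries 2 and 3 of both lines together. The positive values among libraries 2 and 3 therefore do not show a pairing of their own. The closing section gives the alternatives, 3 of them added after seeing the data. The number of libraries limits the precision.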

Additional observations from a re-analysis of the deposited data

Results flagged for a closer look

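UBTF and TSR1 were called in opposite directions with different hairpins, and the lines differed from each other by the same test. For UBTF the log2 difference was -0.740 in sh-SKA2-2 against sh-SKA2-1 and 0.855 in sh-SKA2-3 against sh-SKA2-2 (adjusted p = 8.49e-07 and 2.58e-07 in edgeR). For TSR1 these differences were -0.406 and 0.418 (adjusted p = 0.000184 and 0.000132 in edgeR). On the TPM scale the fall of UBTF in sh-SKA2-2 was not called in limma, at -0.047 (adjusted p = 0.565), and the sh-SKA2-2 value of TSR1 turned to 0.25.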

How the results depend on the processing

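Of 134 calls over 37 members and 6 comparisons, 62 kept their direction and side of the threshold in every alternative planned, 24 changed sign in some alternative and 34 missed the threshold without some single library. The TPM scale raised the median of all genes by 0.29, 0.33 and 0.12 in sh-SKA2-1, sh-SKA2-2 and sh-SKA2-3. With limma on log2(TPM + 1), sh-SKA2-1 against sh-control gave 20 higher and 9 lower with a median of 0.22, and with a pseudocount of 0.1 20, 9 and 0.23. With limma on log2(TPM + 1), sh-SKA2-2 against sh-control gave 8 higher and 18 lower with a median of -0.12, and with a pseudocount of 0.1 8, 18 and -0.12. With limma on log2(TPM + 1), sh-SKA2-3 against sh-control gave 10 higher and 9 lower with a median of 0.15, and with a pseudocount of 0.1 10, 9 and 0.15. With limma on log2(TPM + 1), sh-SKA2-2 against sh-SKA2-1 gave 3 higher and 21 lower with a median of -0.29, and with a pseudocount of 0.1 3, 21 and -0.31. With limma on log2(TPM + 1), sh-SKA2-3 against sh-SKA2-1 gave 1 higher and 3 lower with a median of -0.075, and with a pseudocount of 0.1 1, 3 and -0.076. With limma on log2(TPM + 1), sh-SKA2-3 against sh-SKA2-2 gave 16 higher and 4 lower with a median of 0.14, and with a pseudocount of 0.1 16, 4 and 0.14. With length and GC offsets, the members higher and lower and their median were 9, 16 and -0.075 for sh-SKA2-1 against sh-control, 2, 32 and -0.36 for sh-SKA2-2 against sh-control, 10, 10 and -0.026 for sh-SKA2-3 against sh-control, 4, 29 and -0.30 for sh-SKA2-2 against sh-SKA2-1, 10, 2 and 0.059 for sh-SKA2-3 against sh-SKA2-1 and 31, 1 and 0.31 for sh-SKA2-3 against sh-SKA2-2. With only the 2 groups compared in the fit, 2 members were higher and 2 lower in sh-SKA2-3 against sh-control, 4 higher in sh-SKA2-2 against sh-SKA2-1, 1 higher in sh-SKA2-3 against sh-SKA2-1 and 0 lower in sh-SKA2-3 against sh-SKA2-2. Without the filter on low counts 3 members were higher in sh-SKA2-3 against sh-SKA2-1 and 0 lower in sh-SKA2-3 against sh-SKA2-2. DESeq2 called 2 lower in sh-SKA2-3 against sh-SKA2-1. With the replicate block in the fit of 4 groups, 7 members were higher and 11 lower in sh-SKA2-3 against sh-control, and 2 higher in sh-SKA2-2 against sh-SKA2-1. With the block and these 2 groups alone, an alternative chosen after seeing the data, sh-SKA2-3 against sh-control gave 14 higher and 17 lower, and with the block and the offsets together 11 and 11. Without library 1 of sh-control and of sh-SKA2-3, also chosen after seeing the data, members higher, lower and the median were 13, 21 and -0.20 for sh-SKA2-1 against sh-control, 4, 28 and -0.67 for sh-SKA2-2 against sh-control, 13, 15 and -0.016 for sh-SKA2-3 against sh-control, 4, 31 and -0.36 for sh-SKA2-2 against sh-SKA2-1, 21, 9 and 0.21 for sh-SKA2-3 against sh-SKA2-1 and 29, 1 and 0.47 for sh-SKA2-3 against sh-SKA2-2. Leaving out each library in turn gave ranges of members higher, lower and median of 5 to 12, 16 to 19 and -0.20 to -0.13 for sh-SKA2-1 against sh-control, 1 to 3, 26 to 27 and -0.67 to -0.49 for sh-SKA2-2 against sh-control, 4 to 12, 6 to 15 and -0.083 to 0.0060 for sh-SKA2-3 against sh-control, 1 to 2, 20 to 27 and -0.36 to -0.32 for sh-SKA2-2 against sh-SKA2-1, 0 to 17, 1 to 5 and 0.089 to 0.21 for sh-SKA2-3 against sh-SKA2-1 and 24 to 29, 0 to 1 and 0.41 to 0.46 for sh-SKA2-3 against sh-SKA2-2. In sh-SKA2-1 against sh-control the sign turned for POLR1A (-0.19 with offsets), FBL (0.039 with offsets), NOP58 (0.15 and 0.15), DKC1 (0.091 and 0.092), UTP20 (-0.14 with offsets), BOP1 (0.063 with offsets), MRTO4 (0.0081 and 0.0082), RRS1 (0.22 and 0.23, 0.22 with offsets), NOP2 (0.056 and 0.056), NCL (0.071 and 0.071) and LYAR (0.20 and 0.20). In sh-SKA2-2 against sh-control the sign turned for POLR1A (-0.21 with offsets), IMP4 (0.074 and 0.075), TSR1 (0.25 and 0.25), BOP1 (0.26 with offsets), WDR12 (0.18 and 0.19), PPAN (0.14 with offsets), NIP7 (0.016 and 0.017), NOP16 (0.023 and 0.024, 0.40 with offsets) and DDX18 (-0.065 with offsets). In sh-SKA2-3 against sh-SKA2-2 the sign turned for MYC (-0.067 and -0.068), POLR1A (0.31 with offsets), POLR1B (-0.0013 and -0.0018) and NOLC1 (-0.060 and -0.060). Pairs of values in parentheses are on the TPM scale with pseudocounts of 1 and 0.1. Every TPM value that turned in sh-SKA2-1 or sh-SKA2-2 against sh-control still lay below that scale's median of all genes (0.29 and 0.33). Those that turned in sh-SKA2-3 against sh-SKA2-2 still lay above the median there (-0.22). The cause of these changes was not tested. Shares of all tested genes called were computed only for the test on all libraries without offsets or block. The counts of the alternatives therefore have no such share beside them.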
